A study of Mus musculus with 9 samples.

Results

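The response of mouse embryonic stem (ES) cells to a let-7c mimic was compared with mock transfection across all annotated genes, with attention to genes and functions beyond published let-7 targets. The comparison used the 3 arrays labelled as let-7c transfected and the 3 labelled as mock transfected, 6 of the 9 arrays of the study, and was read in 13182 tested genes of 19938 genes with a probe set of their own. All groups were Dgcr8 -/- ES cells grown without leukaemia inhibitory factor (LIF) after transfection and harvested at 12 h. The let-7c group received 50 nM of a miRIDIAN mimic, a synthetic double-stranded form of the microRNA, with Dharmafect 1 reagent. The mock group is labelled only as mock transfected. The other mimic group received 50 nM of miR-294. No group received a control mimic, so an effect of let-7c and an effect of transfected RNA as such cannot be told apart against mock alone. For this reason values with miR-294 and direct tests of let-7c against miR-294 are given beside many of the main results, though not all. These comparisons share arrays and are set side by side only.

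Dgcr8 encodes the partner of Drosha that makes microRNA hairpins from primary transcripts, and ES cells without it lack most mature microRNAs. The let-7 family is scarce in normal ES cells and abundant in differentiated ones, where it lowers transcripts that carry sites matching its seed, bases 2 to 8 of the mature strand. miR-294 comes from the miR-290 cluster, whose microRNAs are plentiful in normal ES cells. The mature sequences of both microRNAs are shown with the seed in capitals, because the 2 mimics differ in the seed and so in the sites they can bind. They are RefSeq sequences of the GRCm38.p6 assembly, 5′ to 3′.
mmu-let-7c-5p: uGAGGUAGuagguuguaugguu
mmu-miR-294-3p: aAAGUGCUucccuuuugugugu
The let-7c strand is encoded at chr15:85706616-85706637 and chr16:77599672-77599693, and its seed is shared by 11 mature mouse names in the table. miR-294 is encoded at chr7:3220691-3220712. Sites for either seed in the transcripts were not analysed here.

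Within a group, arrays correlated with each other at r of at least 0.995 over genes. The median standard deviation (SD) of a gene was 0.0676 in the let-7c group and 0.0566 in the mock group on the log2 scale. Values are log2 intensities, a difference of 1 is 2-fold, and the value after ± is the standard error (SE) of a difference. The labels call the replicates biological. Dgcr8 itself read 8.85, 8.94 and 8.91 with let-7c and 8.92, 9.08 and 9.03 in mock, and its difference did not pass the test (-0.11 ± 0.05, adjusted p = 0.12). Which part of the gene was deleted is unknown here, and the probe may lie outside it, so the genotype was not checked.

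ES cell markers were bright on all arrays, with a median over 12 genes of 11.37 to 11.47 on the let-7c arrays and 11.72 to 11.77 on the mock arrays. With let-7c 7 of the 12 fell and 0 rose (median -0.25), against 14.8% of all tested genes called lower and 13.9% called higher. Nanog, a pluripotency transcription factor, read 12.31, 12.31 and 12.27 in mock and 11.82, 11.86 and 11.85 with let-7c, a fall of 0.46 ± 0.05 on the log2 scale (adjusted p = 5.1e-05). Sox2 fell by 0.23 ± 0.05 (adjusted p = 0.0043). For Pou5f1 the difference was -0.10 ± 0.04 (adjusted p = 0.0851), a fall that passed with an intensity trend and robust prior in the fit (adjusted p = 0.00785). In such bulk samples, fewer cells of a type and less RNA per cell cannot be told apart. Markers of other cells were dimmer. Of 19 feeder fibroblast markers on the array, 11 were tested and 7, including Dcn, Lum, Postn and Pdgfrb, lay below the 40th percentile on every array. Their median was 6.73 to 7.14 with let-7c and 6.72 to 7.30 in mock. Among the tested ones 2 rose, Sparc (0.14 ± 0.04, adjusted p = 0.0311) and Twist1 (0.31 ± 0.09, adjusted p = 0.0201). The Sparc call was lost when any 1 let-7c or mock array was left out (adjusted p = 0.0501 to 0.101). It was also lost with no filter on dim genes (adjusted p = 0.0691). The Twist1 call was lost without let-7c replicate 3 (adjusted p = 0.0802) or mock replicate 3 (adjusted p = 0.0652). Of primitive endoderm markers 3 of 11 rose and 1 fell, of trophoblast markers 2 of 8 rose and 1 fell, of neurectoderm markers 2 of 11 rose and 1 fell, and of mesendoderm markers 1 of 9 rose and 0 fell. The primitive endoderm rises numbered 1 without let-7c replicate 1 or any 1 of the mock replicates, and the neurectoderm rises 1 without mock replicate 2. The neural progenitor filament gene Nes rose by 0.76 ± 0.14 (adjusted p = 0.00259), while the neuronal tubulin gene Tubb3 fell by 0.53 ± 0.08 (adjusted p = 0.000521).

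Against mock, 28.7% of tested genes were called changed at a Benjamini-Hochberg adjusted p under 0.05, with 1831 rises and 1952 falls. Most changes were small. The median rise was 0.25 and the median fall -0.26, while the median over all genes was 0.019. The published let-7 target list held 127 tested genes, of which 5 rose and 76 fell (median -0.26). Its largest falls were Trim71 (-1.52), Trim6 (-1.48) and Sall4 (-1.44). Outside that list, 1826 genes rose and 1876 fell among 13055 tested. At 1.5-fold or more the numbers of rises and falls outside the list were equal, 102 each, where 0.781% and 0.994% of all tested genes passed that bar upward and downward. At 2-fold or more they were 4 and 4 (0.0303% and 0.144% of all genes). Of all 19 falls of that size, 15 belonged to the published list.

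Among genes outside the list, the largest falls included genes of oxygen sensing, Nodal signalling, chromatin and RNA processing. Hif1an encodes the asparagine hydroxylase that restrains the hypoxia factor HIF-1. It read 9.98, 10.15 and 10.16 in mock and 8.72, 9.01 and 8.91 with let-7c, a fall of 1.22 ± 0.08 on the log2 scale (2.32-fold, adjusted p = 2.44e-06). With miR-294 it read 8.91, 9.01 and 8.97, and let-7c and miR-294 did not differ by the direct test (-0.08 ± 0.08, adjusted p = 0.407). The let-7c and miR-294 values of Hif1an overlap each other and lie below all mock values. Lefty1, a secreted Nodal antagonist, read 10.67, 10.77 and 10.68 in mock and 9.66, 9.50 and 9.46 with let-7c (-1.17 ± 0.06, adjusted p = 7.57e-07). It was lower still with miR-294, at 9.24, 9.08 and 9.20 (let-7c minus miR-294 0.37 ± 0.06, adjusted p = 0.000459).

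For other large falls the miR-294 arrays lay near or above mock. Zfp473, a zinc finger gene, read 8.28, 8.10 and 8.03 in mock, 7.12, 6.90 and 6.94 with let-7c and 8.37, 8.26 and 8.32 with miR-294 (let-7c minus mock -1.15 ± 0.07, adjusted p = 2.91e-06). Yeats4, whose protein reads histone acylation in remodelling complexes, read 9.95, 9.93 and 10.02 in mock and 8.99, 9.00 and 8.91 with let-7c, and fell by 1.00 ± 0.05 (adjusted p = 5.04e-07). With miR-294 it was 0.25 above mock. Smarcd1, a SWI/SNF remodelling subunit, read 10.87, 10.96 and 10.91 in mock and 9.94, 10.03 and 9.93 with let-7c (-0.95 ± 0.05, adjusted p = 1.27e-06). The direct tests of let-7c against miR-294 gave -1.33, -1.25 and -1.02 for these 3 genes (adjusted p = 1.29e-07, 1.53e-08 and 9.37e-08). Clp1 encodes an RNA kinase of tRNA splicing and mRNA 3′ end formation. It read 10.18, 10.30 and 10.26 in mock and 9.32, 9.34 and 9.34 with let-7c, a fall of 0.92 ± 0.04 (adjusted p = 3.69e-07). Dpagt1, which starts the lipid-linked sugar of N-glycosylation, fell by 0.98 ± 0.07 (adjusted p = 6.75e-06), and Gng5, a G protein gamma subunit, by 0.93 ± 0.05 (adjusted p = 7.57e-07). Nynrin (-1.07), the cell surface hyaluronidase gene Cemip2 (-0.99) and Zc3hav1l (-0.91) were also below mock with miR-294, by -0.33, -0.31 and -0.39. The remaining members of the 14 largest were Pgap6 (-0.93), Spryd4 (-0.91) and Zcchc3 (-0.90). All 14 calls held under every alternative setting run.

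The largest rises outside the list were those of genes for haem breakdown, cystine uptake, adhesion and growth factor response. Hmox1, which encodes haem oxygenase 1, read 10.74, 10.81 and 10.77 in mock, 11.63, 11.78 and 11.72 with miR-294 and 12.05, 12.19 and 12.30 with let-7c. The 3 groups did not overlap, and let-7c exceeded miR-294 by 0.47 ± 0.07 (adjusted p = 9.79e-05). Gpnmb, a transmembrane glycoprotein of lysosomes and melanosomes, read 7.03, 7.05 and 6.85 in mock and 8.28, 8.12 and 8.01 with let-7c (1.16 ± 0.09, adjusted p = 9.51e-06). Slc7a11, the cystine transporter, read 7.22, 6.65 and 6.86 in mock and 7.90, 8.10 and 8.03 with let-7c (1.10 ± 0.12, adjusted p = 7.21e-05). With miR-294 both lay close to mock, at 0.12 (adjusted p = 0.29) and 0.07 (adjusted p = 0.675). Lpar4, a lysophosphatidic acid receptor, read 8.20, 8.48 and 8.47 in mock and 9.03, 9.47 and 9.60 with let-7c (0.99 ± 0.13, adjusted p = 0.000331). Hs3st3a1, a heparan sulphate sulphotransferase, rose by 0.95 ± 0.08 (adjusted p = 1.76e-05). Cxcl10, a chemokine, read 6.49, 6.54 and 6.56 in mock and 7.06, 7.66 and 7.62 with let-7c (0.92 ± 0.13, adjusted p = 0.000446). Of its let-7c arrays 1 lay well below the other 2. Among 21 tested genes of a list for RNA sensing and the interferon response 1, Cxcl10, rose and 3 fell (median 0.00). These are 4.76% and 14.3%, against 13.9% and 14.8% over all genes. Rises in the list numbered 2 without let-7c replicate 1 or 2. Falls numbered 1 without let-7c replicate 1 or 2 or mock replicate 2 or 3. The RNA sensor gene Ddx58, which rose, is not among the 21, since the list held it under a newer symbol that the array does not use. With miR-294 1 of these 21 rose and 12 fell (median -0.40), where 41.9% of all genes were called, 20.7% as rises and 21.1% as falls. The neurofilament gene Nefm (0.97) and Wdr45 (0.92), which encodes an autophagy protein, were above mock with miR-294 as well, each by 0.69.

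**Figure D1:**
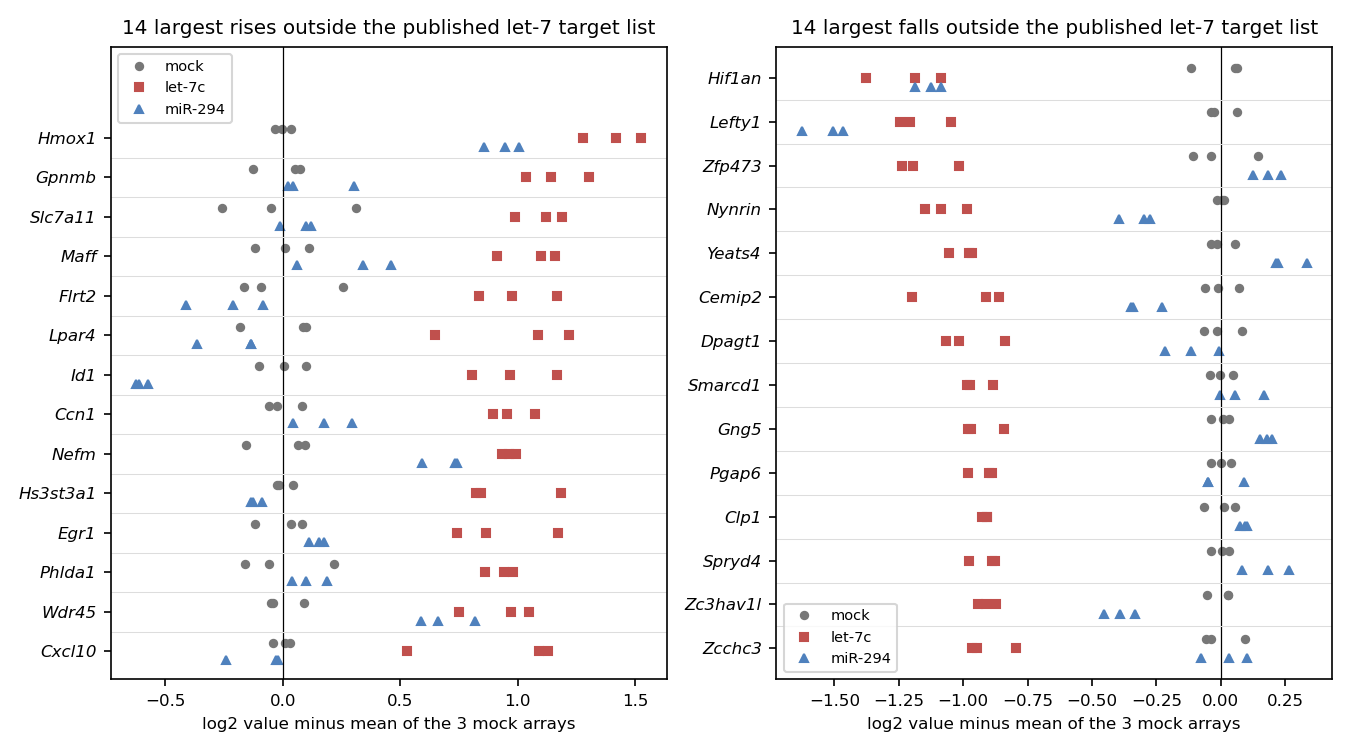
Each point is 1 array, as its log2 value minus the mean of the 3 mock arrays (x axis), for the 14 largest rises (left) and 14 largest falls (right) outside the published let-7 target list; circles are mock, squares let-7c and triangles miR-294. For Hif1an and Lefty1 the miR-294 arrays lie far below mock as well, and for Id1 the miR-294 arrays lie on the other side of mock from let-7c.

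Immediate early genes, the transcription factors and signalling brakes that cells switch on within minutes of a growth factor or stress, formed the group with the highest share of rises. Of 31 tested members 20 rose and 0 fell, and the list median was 0.28, against 0.019 over all genes. Fos, an AP-1 transcription factor subunit, read 7.43, 7.44 and 7.36 in mock and 7.99, 8.19 and 8.38 with let-7c (0.78 ± 0.09, adjusted p = 0.000138). Egr1, a zinc finger factor, read 7.99, 8.04 and 7.84 in mock and 8.70, 8.82 and 9.13 with let-7c (0.93 ± 0.09, adjusted p = 5.16e-05). Phlda1 read 8.87, 8.59 and 8.49 in mock and 9.51, 9.59 and 9.63 with let-7c (0.93 ± 0.08, adjusted p = 2.66e-05). For each of these genes all let-7c arrays lay above all mock arrays, a pattern found in 2905 of the 13182 tested genes. Maff, a small Maf protein that is also in the antioxidant list, rose by 1.05 ± 0.10 (adjusted p = 3.87e-05). With miR-294 9 of the 31 rose and 6 fell, against 20.7% and 21.1% over all genes. Fos (0.08), Egr1 (0.15) and Phlda1 (0.11) did not pass the test with miR-294. Klf6 and the AP-1 subunit gene Jun, picked after their values were seen, rose with let-7c (0.60 and 0.59) and fell with miR-294 (-0.79 and -0.70). Their direct differences were 1.39 and 1.29 (adjusted p = 1.37e-08 and 5.18e-06). Leaving out each array in turn gave 17 to 20 rises.

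Many genes of the actin cytoskeleton, a list that includes targets of the serum response factor SRF, were also higher. Of 34 tested members 17 rose and 0 fell (median 0.16), against 13.9% and 14.8% over all genes. The miR-294 arrays gave 1 rise and 7 falls (median -0.07), against 20.7% and 21.1% over all genes. Vcl, the focal adhesion protein vinculin, read 10.44, 10.49 and 10.42 in mock, 10.30, 10.34 and 10.25 with miR-294 and 10.73, 10.86 and 10.94 with let-7c (let-7c minus mock 0.40 ± 0.06, adjusted p = 0.000476). Zyx, the focal adhesion protein zyxin, read 8.94, 8.92 and 8.93 in mock and 9.21, 9.35 and 9.39 with let-7c (0.39 ± 0.05, adjusted p = 0.000313). Tagln, an actin-bundling protein, read 8.60, 8.37 and 8.44 in mock and 8.81, 9.09 and 9.12 with let-7c (0.53 ± 0.11, adjusted p = 0.00537). For all 3 genes the let-7c arrays lay above every mock array, as in 2905 of the 13182 tested genes. Cnn2 rose by 0.36 ± 0.09 (adjusted p = 0.0135), a call lost without let-7c replicate 3 (0.051) or mock replicate 1 (0.0518). Actb, the main cytoplasmic actin, was at 0.04 ± 0.04 (adjusted p = 0.541). Without let-7c replicate 3 the count was 11 of 34. The median of the 19 fibroblast markers, given above, had overlapping ranges on the let-7c and mock arrays, but 7 of them were dim on every array. Among the 11 tested, 2 rose and 0 fell (18.2% higher, against 13.9% over all genes). Whether fibroblasts add to the actin rises was not tested.

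The promoter of Vcl is shown because the CArG box, the sequence that SRF binds, lies in it at position -227 from the start. The 250 bases before the start are given in gene orientation (RefSeq, GRCm38.p6, chr14:20929148-20929397, + strand), with the box in capitals. This motif was added after the values had been seen.
Vcl: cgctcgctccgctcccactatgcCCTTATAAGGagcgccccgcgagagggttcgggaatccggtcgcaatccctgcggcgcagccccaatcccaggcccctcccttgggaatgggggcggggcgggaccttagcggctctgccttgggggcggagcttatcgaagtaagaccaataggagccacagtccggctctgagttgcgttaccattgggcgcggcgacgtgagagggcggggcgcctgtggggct
The box was found, on either strand, in 8 of 41 promoters (19.5%) of 32 matched genes of the actin list. It was in 1.63% of all 32851 promoters of 300 bases and 1.3% of those of tested genes. The list includes SRF targets, so its high share is partly built in and says nothing about let-7c. The box was in 1.75% of promoters of genes called higher and 1.24% of those called lower.

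Among genes named as targets or factors of Yap and Tead, the transcriptional arm of Hippo signalling, rises outnumbered falls. Of 28 tested members 14 rose and 4 fell with let-7c (median 0.19). These are 50.0% and 14.3%, against 13.9% and 14.8% over all genes. The miR-294 arrays gave 2 rises and 11 falls (median -0.12), against 20.7% and 21.1% over all genes. The matricellular genes led the rises. Ccn1 read 10.11, 10.22 and 10.08 in mock and 11.03, 11.09 and 11.21 with let-7c (0.97 ± 0.07, adjusted p = 5.94e-06). Ccn2 read 10.52, 10.50 and 10.43 in mock and 10.96, 11.16 and 11.29 with let-7c (0.65 ± 0.08, adjusted p = 0.000145). The factors themselves diverged. Wwtr1, which encodes the Yap paralogue Taz, read 8.92, 8.96 and 8.89 in mock and 9.45, 9.43 and 9.45 with let-7c and rose by 0.52 ± 0.05 (adjusted p = 5.1e-05). Yap1 fell by 0.28 ± 0.05 (adjusted p = 0.00253) and Tead4 by 0.52 ± 0.05 (adjusted p = 5.1e-05). With miR-294 neither factor gene passed the test against mock (0.08 and -0.07).

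Antioxidant genes, including targets of the stress factor Nrf2, showed a few large rises and many small differences. Of 37 tested members 11 rose and 2 fell (median 0.10), against 13.9% and 14.8% over all genes. With miR-294 5 rose and 10 fell (median 0.00), against 20.7% and 21.1% over all genes. Besides Hmox1, Slc7a11 and Maff, the autophagy receptor gene Sqstm1 rose, from 12.34, 12.46 and 12.40 in mock to 12.89, 12.96 and 12.96 with let-7c (0.54 ± 0.05, adjusted p = 3.65e-05). With miR-294 Sqstm1 fell by 0.25 (adjusted p = 0.0025). Nqo1, another commonly used Nrf2 target, was at 0.02 ± 0.05 (adjusted p = 0.774) and Nfe2l2, which encodes Nrf2, at 0.03 ± 0.05 (adjusted p = 0.746). These 2 genes were picked after their values were seen. Gsr, glutathione reductase, fell by 0.22 ± 0.05 (adjusted p = 0.00907). The fall of Gsta4 (-0.16 ± 0.05, adjusted p = 0.0477) was lost under several alternatives, with an adjusted p of up to 0.137. The list's rises numbered 7 without let-7c replicate 3, mock replicate 1 or mock replicate 3.

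The promoter of another Maff start (chr15:79347270-79347569) holds no antioxidant response element but does hold CACGTG at -191 and TGACGTCA at -29. The promoter upstream of a start of Maff is shown because it holds the antioxidant response element, TGACNNNGC on either strand, at position -112 (capitals; RefSeq, GRCm38.p6, chr15:79346371-79346620, + strand).
Maff: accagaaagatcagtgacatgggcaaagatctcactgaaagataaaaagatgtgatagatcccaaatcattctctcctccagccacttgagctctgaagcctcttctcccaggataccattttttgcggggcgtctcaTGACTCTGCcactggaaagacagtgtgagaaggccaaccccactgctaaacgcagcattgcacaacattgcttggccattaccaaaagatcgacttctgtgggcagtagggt
The element was in 14 of 44 promoters (31.8%) of 32 matched antioxidant genes, in 12.4% of all promoters and in 13.9% of those of tested genes. The list was written to include Nrf2 targets, so its high share is partly built in and says nothing about let-7c. Genes called higher held the element in 14.5% of promoters and genes called lower in 13.5%.

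Of 24 tested iron and haem genes 6 rose and 3 fell (median 0.02), against 13.9% and 14.8% over all genes. Their share of falls was thus below that over all genes. Slc40a1 encodes ferroportin, the iron exporter. It read 8.32, 8.13 and 8.17 in mock, 7.70, 7.48 and 7.61 with miR-294 and 9.06, 9.06 and 9.24 with let-7c. The groups did not overlap, with let-7c 0.92 ± 0.07 above mock (adjusted p = 1.13e-05) and 1.53 above miR-294 (adjusted p = 4.7e-08). Slc48a1, a haem transporter, rose by 0.43 ± 0.07 (adjusted p = 0.00079). The ferritin light chain gene Ftl1 read 13.07, 13.01 and 12.97 in mock and 12.51, 12.39 and 12.33 with let-7c (-0.60 ± 0.05, adjusted p = 2.35e-05). Steap3, an iron reductase, fell by 0.43 ± 0.06 (adjusted p = 0.000317). Ferritin genes have near-identical copies, so the probes may read several of them.

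Among BMP signalling genes, the largest rises were those of the Id genes, which are BMP targets. Of 26 tested members 6 rose and 1 fell (median 0.11). These are 23.1% and 3.85%, against 13.9% and 14.8% over all genes. Id1, an inhibitor of helix-loop-helix factors, read 9.86, 10.06 and 9.97 in mock and 10.77, 10.93 and 11.13 with let-7c, but 9.35, 9.39 and 9.34 with miR-294. The direct difference between the mimics was 1.58 ± 0.08 (adjusted p = 8.7e-08). Id3 read 8.24, 8.74 and 8.39 in mock and 8.97, 9.62 and 9.45 with let-7c (0.89 ± 0.17, adjusted p = 0.00245), with a wide spread in both groups that still did not overlap. Id4 rose by 0.48 ± 0.07 (adjusted p = 0.000845). Smad6, an inhibitory Smad, fell by 0.24 ± 0.05 (adjusted p = 0.00626).

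Cell surface guidance molecules (semaphorins, plexins, ephrins, netrins and their receptors, by symbol) had 12 rises and 3 falls among 50 tested (median 0.01). Flrt2, an adhesion protein and Unc5 ligand, read 7.74, 7.39 and 7.32 in mock and 8.32, 8.65 and 8.46 with let-7c (0.99 ± 0.12, adjusted p = 0.000148). Efna5, an ephrin ligand, rose by 0.79 ± 0.09 (adjusted p = 0.000111) and Plxnc1, a semaphorin receptor, by 0.63 ± 0.08 (adjusted p = 0.000346). With a replicate block 5 members were called lower. Collagens, laminins and integrins had 7 rises and 0 falls of 60 tested (median 0.09). Their share of rises (11.7%) was near the 13.9% over all genes, while 14.8% of all genes fell. The rises numbered 13 with the block, 3 without let-7c replicate 1 or mock replicate 3 and 4 without mock replicate 2. Itga3 rose by 0.39 ± 0.05 (adjusted p = 0.000286) and Itgb4 by 0.39 ± 0.07 (adjusted p = 0.00121), both integrin subunits.

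Among genes of lysosomal acidification and proteolysis, rises outnumbered falls. Of 27 tested subunits of the vacuolar ATPase and cathepsins 12 rose and 2 fell (median 0.13), against 13.9% and 14.8% over all genes. The count of rises was 7 without let-7c replicate 1. The miR-294 arrays gave 6 rises and 7 falls (median 0.05), against 20.7% and 21.1% over all genes. Ctsd, the protease cathepsin D, read 11.86, 11.84 and 11.78 in mock and 12.15, 12.16 and 12.21 with let-7c (0.35 ± 0.04, adjusted p = 0.000175). The membrane subunits Atp6v0b (0.32 ± 0.05, adjusted p = 0.000697) and Atp6v0d1 (0.31 ± 0.05, adjusted p = 0.00129) rose, and Atp6v1b2 fell (-0.27 ± 0.04, adjusted p = 0.000961). The Ctsd promoter is shown because it holds 2 matches of the CLEAR element, GTCACGTG, both on the other strand (CACGTGAC, capitals; RefSeq, GRCm38.p6, chr7:142387828-142388077, - strand). Each match also contains the E-box CACGTG.
Ctsd: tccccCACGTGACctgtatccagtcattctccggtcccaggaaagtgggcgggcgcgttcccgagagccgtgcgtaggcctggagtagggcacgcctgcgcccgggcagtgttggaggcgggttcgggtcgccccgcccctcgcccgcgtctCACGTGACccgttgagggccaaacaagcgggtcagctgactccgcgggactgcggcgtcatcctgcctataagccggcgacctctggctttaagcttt
The element lies in 2.25% of all promoters and 4.01% of those of tested genes. It was in 5.4% of promoters of genes called higher and 4.12% of those called lower. Promoters were matched for 20 of the 27 group members, too few for a share of that group. Of 31 tested autophagy genes 8 rose and 3 fell (median 0.09). These are 25.8% and 9.68%, against 13.9% and 14.8% over all genes. Autophagy rises numbered 5 when any of let-7c replicate 2 or mock replicates 1, 2 and 3 was left out. Map1lc3b and Gabarap encode proteins that coat autophagosomes. Map1lc3b read 10.42, 10.50 and 10.36 in mock and 10.91, 10.79 and 10.85 with let-7c (0.42 ± 0.06, adjusted p = 0.000416). Gabarap read 11.03, 11.04 and 11.06 in mock, 11.46, 11.43 and 11.48 with let-7c and 10.35, 10.19 and 10.25 with miR-294, a direct difference between the mimics of 1.19 (adjusted p = 1.5e-08). Atg16l1 fell by 0.37 ± 0.05 (adjusted p = 0.000322).

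**Figure D2:**
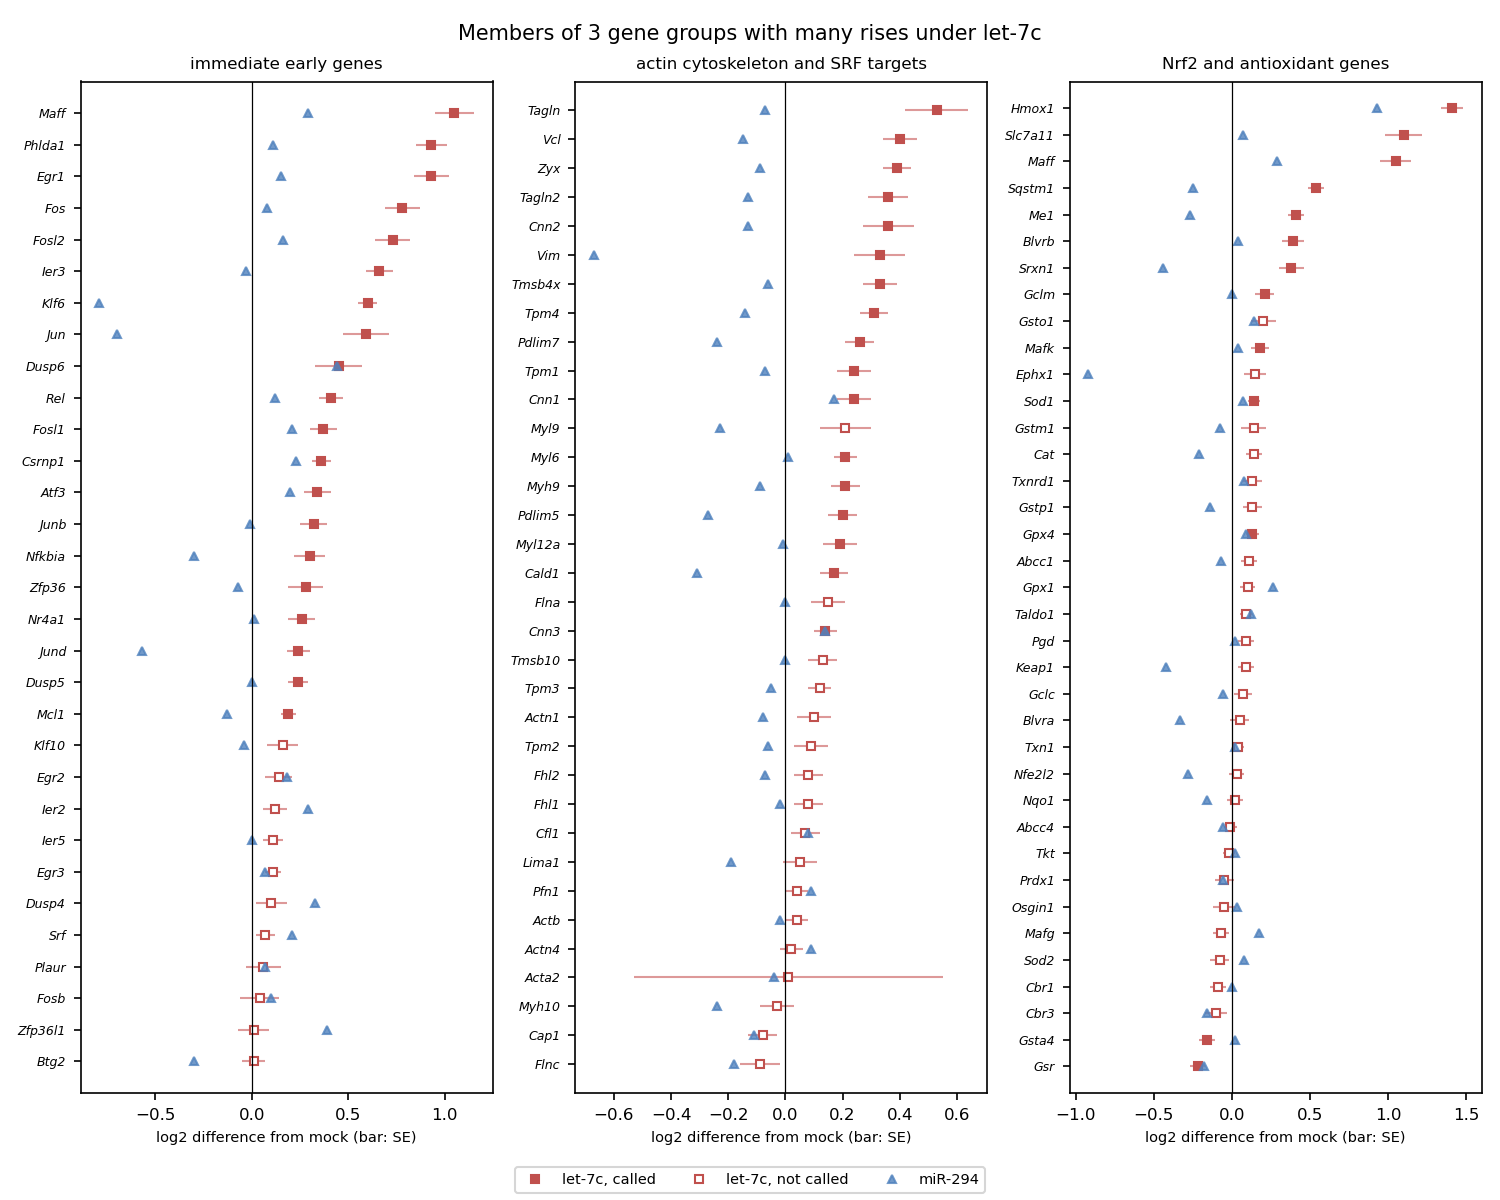
Squares give the let-7c minus mock difference of each tested member of 3 gene groups (x axis, log2, bar: SE), filled where it passed an adjusted p of 0.05, and triangles the miR-294 minus mock difference. In the immediate early group 20 of 31 squares are filled, all on the right, while the triangles lie on both sides of 0.

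Many DNA repair genes were lower with let-7c. Of 46 tested members 23 fell and 0 rose (median -0.14), and leaving out each array in turn gave 19 to 24 falls. With miR-294 4 rose and 13 fell (median -0.02), against 20.7% and 21.1% over all genes. H2ax, the histone variant that marks broken DNA, read 10.81, 10.75 and 10.69 in mock, 11.10, 11.17 and 11.12 with miR-294 and 10.08, 10.17 and 10.15 with let-7c. It fell by 0.62 ± 0.05 against mock (adjusted p = 1.12e-05), and the 3 groups did not overlap. Exo1, a nuclease of mismatch repair and end resection, read 9.64, 9.66 and 9.55 in mock and 9.19, 9.02 and 9.15 with let-7c (-0.50 ± 0.05, adjusted p = 7.89e-05). Msh6, a mismatch recognition protein, read 11.98, 12.01 and 12.01 in mock and 11.52, 11.63 and 11.53 with let-7c (-0.44 ± 0.04, adjusted p = 5.13e-05). Brca2, a gene of homologous recombination, read 9.37, 9.34 and 9.26 in mock and 8.89, 8.91 and 8.89 with let-7c (-0.43 ± 0.06, adjusted p = 0.000375). In each of these genes all let-7c arrays lay below all mock arrays, as in 21.9% of all tested genes.

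The Brca2 promoter is shown for its match to the E2F motif TTTCCCGC, read on the other strand as GCGGGAAA at position -168 (capitals; RefSeq, GRCm38.p6, chr5:150522371-150522620, + strand).
Brca2: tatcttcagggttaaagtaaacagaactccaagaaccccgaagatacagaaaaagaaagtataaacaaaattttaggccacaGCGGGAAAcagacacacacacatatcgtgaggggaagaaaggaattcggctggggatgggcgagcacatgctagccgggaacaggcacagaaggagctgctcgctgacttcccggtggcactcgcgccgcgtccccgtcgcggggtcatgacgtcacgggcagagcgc
The motif was in 8 of 46 promoters (17.4%) of 39 matched repair genes, in 1.07% of all promoters and in 1.96% of those of tested genes. It was in 2.63% of promoters of genes called lower and 2.16% of those called higher. The other E2F motif searched, TTTGGCGC, was in 1 of the 46 promoters (2.17%) and in 0.948% of those of tested genes. The shares of the repair list say nothing about let-7c.

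Many enzymes of nucleotide and folate synthesis were lower with let-7c, and most were higher with miR-294. Of 30 tested members 14 fell and 1, Dck, rose with let-7c (median -0.15), while 21 rose and 1 fell with miR-294 (median 0.25). In the direct comparison 25 of the 30 were lower with let-7c and 1 was higher, where 50.8% of all genes were called, 24.5% lower and 26.2% higher. Ppat, which makes the committed step of purine synthesis, read 11.19, 11.29 and 11.21 in mock, 10.73, 10.84 and 10.76 with let-7c and 11.49, 11.53 and 11.50 with miR-294 (let-7c minus mock -0.45 ± 0.05, adjusted p = 6.41e-05). Tk1, the thymidine kinase of S phase, read 9.41, 9.43 and 9.42 in mock and 9.06, 9.01 and 8.98 with let-7c (-0.40 ± 0.05, adjusted p = 0.000184). Shmt2, a mitochondrial folate enzyme, fell by 0.34 ± 0.06 (adjusted p = 0.00112). Dctd fell by 0.41 ± 0.05 (adjusted p = 0.000285). The rise of Dck (0.18 ± 0.05, adjusted p = 0.0228) was lost without let-7c replicate 2 or 3 or mock replicate 1 or 3, with an adjusted p of up to 0.0851. Without mock replicate 3 the falls numbered 9.

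Many genes of tRNA charging and translation initiation were lower with let-7c. Of 34 tested aminoacyl-tRNA synthetases, which load amino acids on tRNAs, 17 fell and 0 rose (median -0.15), with 14 to 17 falls when each array was left out. With miR-294 18 rose and 2 fell (median 0.14). Qars, the glutaminyl enzyme, read 11.02, 11.10 and 11.08 in mock and 10.32, 10.38 and 10.48 with let-7c (-0.67 ± 0.05, adjusted p = 7e-06). Iars, the isoleucyl enzyme, read 12.03, 12.01 and 12.03 in mock and 11.60, 11.47 and 11.50 with let-7c (-0.50 ± 0.05, adjusted p = 5.85e-05). Both enzymes lay below mock on every let-7c array, a pattern found in 21.9% of all tested genes. Of 46 genes with translation initiation factor symbols (Eif) 17 fell and 0 rose (median -0.09), with 12 to 16 falls when each array was left out. They included the cap-binding relative Eif4e2 (-0.38 ± 0.05, adjusted p = 0.000272) and Eif4ebp2, an inhibitor of the cap-binding protein (-0.38 ± 0.05, adjusted p = 0.000301). Cytosolic ribosomal proteins had 0 rises and 1 fall among 61 tested (median -0.03), and 10 falls with an intensity trend and robust prior in the fit. Mitochondrial ribosomal proteins had 10 rises and 19 falls of 77 (median -0.03), with 5 rises without let-7c replicate 3 and 6 without any 1 of the mock replicates. With miR-294 21 of the 61 cytosolic and 54 of the 77 mitochondrial ribosomal protein genes rose, against 20.7% over all genes.

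Of 14 tested subunits of RNA polymerases I and III, which make ribosomal RNA and tRNA, 9 fell and 1 rose (median -0.19). Polr3g read 10.47, 10.38 and 10.31 in mock and 9.70, 9.66 and 9.50 with let-7c (-0.76 ± 0.06, adjusted p = 1.02e-05). Polr1b read 11.47, 11.50 and 11.47 in mock, 11.02, 10.97 and 11.02 with let-7c and 11.73, 11.80 and 11.73 with miR-294 (let-7c minus mock -0.48 ± 0.04, adjusted p = 2.19e-05). The groups of Polr1b did not overlap. The rise of Polr1d (0.20 ± 0.04, adjusted p = 0.00586) was lost when the mean of its probe sets was used (adjusted p = 0.419). Subunits of RNA polymerase II and Mediator had 3 rises and 6 falls of 43 (median -0.02).

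In 3 RNA processing families falls outnumbered rises, though most members did not pass the test. Of 47 tested DEAD and DEAH box helicases 18 fell and 1 rose (median -0.12), with 11 falls without mock replicate 2. Dhx8, a helicase that frees spliced mRNA, read 10.24, 10.29 and 10.23 in mock and 9.49, 9.49 and 9.58 with let-7c (-0.73 ± 0.04, adjusted p = 2.3e-06). Ddx21, a nucleolar helicase, fell by 0.45 ± 0.04 (adjusted p = 4.62e-05). The rise was that of Ddx58, the RNA sensor RIG-I (0.28 ± 0.06, adjusted p = 0.00421). Of 60 tested splicing and hnRNP proteins 16 fell and 0 rose (median -0.09). The falls numbered 7 without let-7c replicate 1, mock replicate 2 or mock replicate 3, and 9 with no filter on dim genes. Sf3a3 (-0.49 ± 0.06, adjusted p = 0.000154) and Sf3a1 (-0.43 ± 0.05, adjusted p = 8.26e-05), both of the U2 snRNP, fell. Of 48 tested mRNA decay genes 12 fell and 0 rose (median -0.09). Cnot11, a subunit of the CCR4-NOT deadenylase, which shortens poly(A) tails of microRNA targets among others, fell by 0.52 ± 0.05 (adjusted p = 4.62e-05). Patl1, a decapping activator, fell by 0.31 ± 0.04 (adjusted p = 0.000379).

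Many nuclear transport genes were lower with let-7c. Of 52 tested nucleoporins and transport receptors 24 fell and 2 rose (median -0.13), with 18 to 24 falls when each array was left out. Xpo4, an export receptor, read 11.07, 11.04 and 11.00 in mock and 10.44, 10.44 and 10.39 with let-7c (-0.61 ± 0.04, adjusted p = 3.74e-06). Nup62, a central channel nucleoporin, read 11.43, 11.52 and 11.37 in mock and 10.89, 10.83 and 10.76 with let-7c (-0.61 ± 0.05, adjusted p = 1.83e-05). Kpna1, an importin alpha, read 10.80, 10.94 and 10.81 in mock and 10.05, 10.33 and 10.23 with let-7c (-0.65 ± 0.07, adjusted p = 7.44e-05). Every let-7c array was below every mock array in all 3, as in 21.9% of all tested genes. Xpot, which exports tRNA, fell by 0.48 ± 0.06 (adjusted p = 0.000184). With miR-294 17 members rose and 8 fell (median 0.09), against 20.7% and 21.1% over all genes. The rise of Nup210l (0.17 ± 0.06, adjusted p = 0.0416) was lost under several alternatives, with an adjusted p of up to 0.134.

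Histone methylases and demethylases had 23 falls and 4 rises of 49 tested (median -0.14) and 18 to 24 falls when each array was left out. The falls included enzymes of repressive histone marks. Setdb1 read 10.93, 11.00 and 10.99 in mock and 10.42, 10.50 and 10.56 with let-7c (-0.48 ± 0.05, adjusted p = 5.1e-05). Kmt5c fell by 0.47 ± 0.04 (adjusted p = 3.41e-05) and Suv39h2 by 0.42 ± 0.04 (adjusted p = 7.1e-05). The arginine methylase gene Prmt2 was an exception and read 8.37, 8.20 and 8.34 in mock and 8.91, 8.84 and 9.01 with let-7c (0.61 ± 0.07, adjusted p = 8.62e-05). Of 46 tested ubiquitin-specific proteases 14 fell and 3 rose (median -0.10), led by Usp10 (-0.53 ± 0.06, adjusted p = 6.57e-05) and Usp38 (-0.50 ± 0.05, adjusted p = 6.41e-05). Zinc finger genes named Zfp had 18 rises and 46 falls of 297 (median -0.02), near the background share of falls, and 10 rises without mock replicate 1. Zfp367 read 10.93, 10.96 and 10.91 in mock, 11.46, 11.45 and 11.50 with let-7c and 9.82, 9.85 and 9.70 with miR-294, a direct difference of 1.68 (adjusted p = 2.3e-09).

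**Figure D3:**
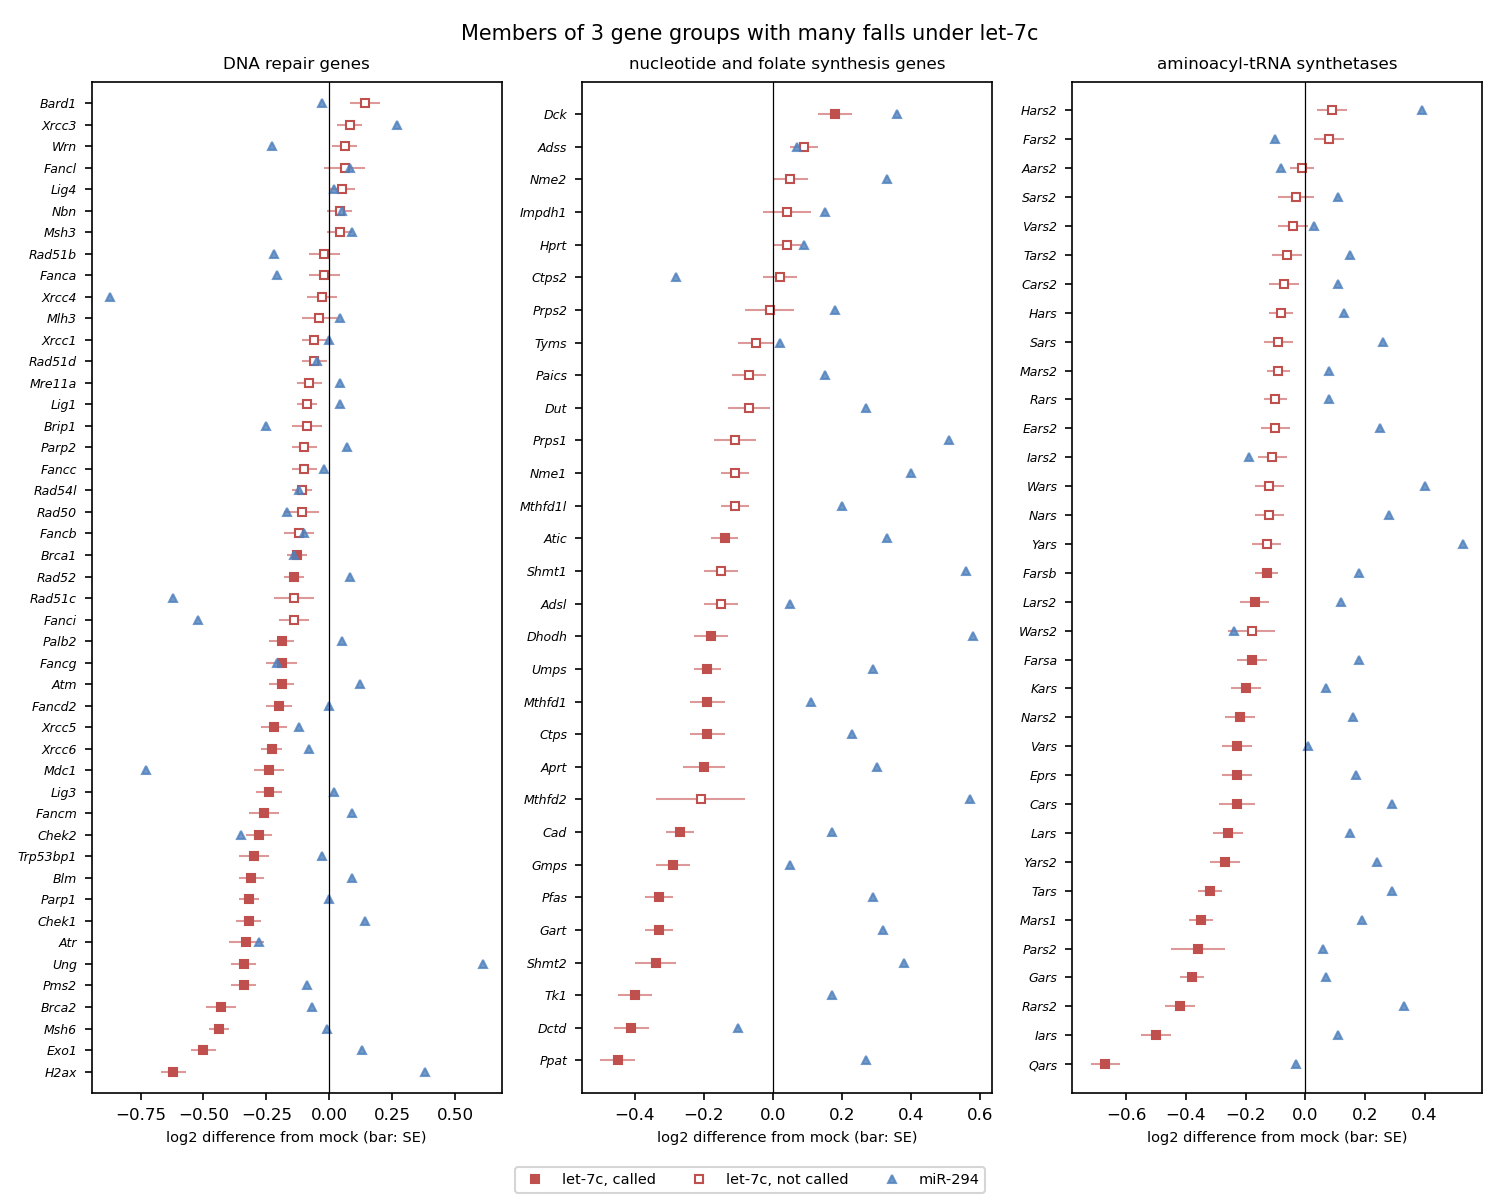
Squares give the let-7c minus mock difference of each tested member of 3 gene groups (x axis, log2, bar: SE), filled where it passed an adjusted p of 0.05, and triangles the miR-294 minus mock difference. Among the nucleotide and folate synthesis genes 14 filled squares lie left of 0, and among all 30 of that group 21 triangles passed as rises.

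Amino acid stress genes under the factor ATF4 had 2 rises and 7 falls of 31 (median -0.05). These are 6.45% and 22.6%, against 13.9% and 14.8% over all genes. Falls in the list numbered 12 under the replicate block. With miR-294 18 of the 31 rose and 2 fell (median 0.25), against 20.7% and 21.1% over all genes. Slc1a5, a glutamine transporter, read 10.40, 10.24 and 10.26 in mock, 9.76, 9.60 and 9.77 with let-7c and 10.80, 10.68 and 10.67 with miR-294. The 3 groups of Slc1a5 did not overlap (let-7c minus mock -0.59 ± 0.06, adjusted p = 8.44e-05).

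The remaining groups are given as rises and falls of the genes tested, to be read against 13.9% and 14.8% over all genes, with the lowest and highest count over all arrays and with each array left out in brackets. Many of these counts moved by over 1.5 times when an array was left out, and no direction is read from them. Proteasome subunits had 2 rises (0 to 2) and 5 falls (3 to 5) of 49, respiratory chain and ATP synthase genes 9 (3 to 10) and 6 (3 to 7) of 86, mitochondrial import genes 1 (0 to 2) and 5 (3 to 5) of 23, and unfolded protein response genes 1 and 1 (1 to 2) of 26. Chaperones had 11 (9 to 11) and 13 (8 to 14) of 69, with 20 falls under the block and 24 with an intensity trend and robust prior. Ubiquitin-conjugating enzymes had 1 (0 to 2) and 1 (0 to 2) of 31, F-box proteins 9 (5 to 9) and 8 (5 to 8) of 53 and TRIM proteins 5 (2 to 5) and 7 (6 to 7) of 38. Among signalling groups, Wnt genes had 5 rises (3 to 6) and 8 falls (5 to 8) of 39, Notch genes 3 (1 to 4) and 1 (1 to 2) of 20, insulin, PI3K and mTOR genes 6 (4 to 7) and 5 (3 to 6) of 31, and G protein-coupled receptors 5 (2 to 5) and 5 (2 to 5) of 64 (8 falls under the block). p53 targets had 4 (4 to 5) and 2 (2 to 3) of 31 (5 falls under the block), glycolysis genes 5 (4 to 5) and 2 (1 to 2) of 26, and germline and meiosis genes 4 (3 to 6) and 1 (1 to 2) of 23 (7 rises and 3 falls under the block). Heparan sulphate and proteoglycan genes had 3 (2 to 4) and 6 (4 to 6) of 28. Among cytoskeletal and membrane families, kinesins and dyneins had 8 (3 to 8) and 8 (3 to 8) of 43, Rab genes 11 (6 to 12) and 2 (1 to 5) of 62 (7 falls under the block), and cadherins, protocadherins and claudins 4 (4 to 6) and 2 (1 to 2) of 27 (10 rises under the block). Kinesin and dynein rises numbered 3 without let-7c replicate 2 or 3 or mock replicate 2 or 3, Rab rises 6 without let-7c replicate 3 or mock replicate 1 or 2, and respiratory chain rises 3 without mock replicate 2. Solute carriers had 34 (21 to 34) and 41 (33 to 41) of 232, with the fewest rises without let-7c replicate 3. ABC transporters had 4 (3 to 4) and 3 (2 to 3) of 25, Tmem genes 29 (19 to 30) and 18 (15 to 19) of 175 and tetraspanins 2 (1 to 2) and 1 (0 to 1) of 16. Olfactory, vomeronasal and taste receptors had 6 rises and 1 fall of 53 tested, 0 rises without let-7c replicate 1 or mock replicate 2, and 16 rises with no filter on dim genes.

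Among these groups the germline factor gene Meioc rose with let-7c and fell with miR-294 (miR-294 minus mock -1.24, adjusted p = 2.54e-05). It read 8.73, 9.05 and 9.11 in mock, 9.29, 9.78 and 9.73 with let-7c and 7.86, 7.68 and 7.63 with miR-294. Let-7c was 0.64 ± 0.13 above mock (adjusted p = 0.00394) and 1.88 above miR-294 (adjusted p = 5.6e-07). Against mock the kinesin gene Kif1a rose more (0.87 ± 0.08, adjusted p = 2.99e-05).

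**Figure D4:**
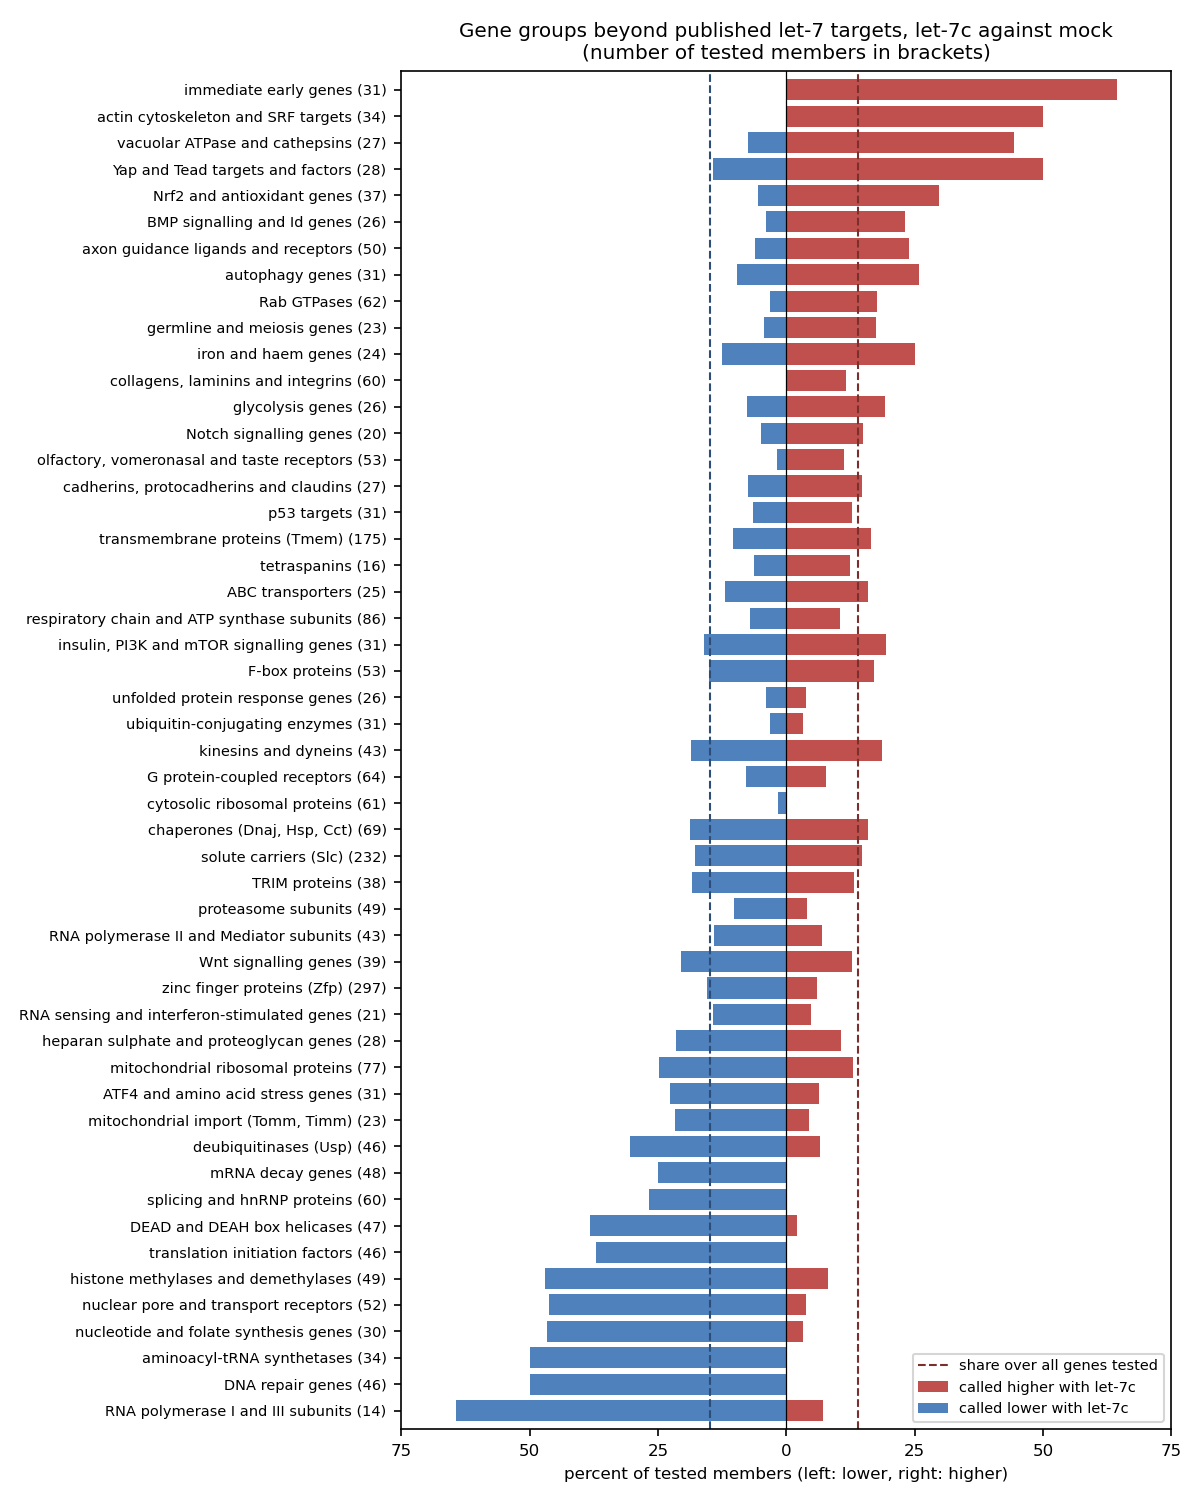
Bars give the percent of tested members of each gene group reported here called higher (right) and lower (left) with let-7c against mock, with the number tested in brackets and the shares over all genes, 13.9% and 14.8%, as dashed lines. Immediate early genes have the highest share of rises (64.5%), and RNA polymerase I and III subunits the highest share of falls (64.3%), the latter of only 14 genes.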

How the data were processed

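RNA from 9 cultures (3 each of let-7c, miR-294 and mock) was measured on 1-colour arrays. The authors deposited 1 value for each of 35557 probe sets per array. The submitters' processing notes name GCRMA, which corrects background, normalizes and summarises probes; version and parameters: not given in the sources used here. Deposited values were read as log2 intensities from their range of 2.54 to 14.97, since no header states the scale, so every difference and fold rests on that reading. They were used with no further normalization. Precision is limited by the number of arrays.

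Genes were named from GEO's probe set annotation, and 21698 probe sets had their symbol matched to RefSeq. Of all probe sets, 21789 had 1 symbol, 1621 several and 12147 none, and only those with 1 were used. A gene was its brightest probe set, tested where 3 or more arrays exceeded their own 40th percentile. A single limma 3.58.1 fit (R 4.3.3, lmFit and eBayes, two-sided) of all 9 arrays with group means and 6 residual degrees of freedom gave all differences and all adjusted p-values (Benjamini-Hochberg over 13182 genes, threshold 0.05). The fit was tested on simulated data.

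The lists (20 written by hand, 32 symbol families by name pattern, 6 marker lists) and the published target list were chosen with earlier results of these data known, as was the comparison, and a p over a list was not computed. Members of the published list were removed from the other lists except the markers. Of 943 written entries 49 had no gene on the array. Symbol families hold whatever carries the symbol, so Eif includes Eif4ebp1 and Eif4ebp2. Of the symbol families, 1 is not reported here. Named genes were the 14 largest rises and falls outside the published list without overlap between groups, up to 4 called genes per list and up to 2 in the opposite direction; exceptions are stated. Promoters (250 bases before to 50 after a start) are RefSeq's.

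Replicate numbers are shared by the groups in the labels. Deviations from the group means correlated at 0.418, 0.301 and 0.133 between same-numbered let-7c and mock arrays. Between differently numbered ones they correlated at -0.361 to 0.149. Deviations within a group sum to 0, which pushes the correlations between different numbers down. The labels do not say that a number marks a shared batch, and whether the numbers pair the arrays is not settled. The main fit left the number out, and a fit with it as a block was run as an alternative. Other alternatives were the 2 groups alone, a trend and robust prior, quantile normalization, centring, other filters, the mean of probe sets and leaving out each array.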

Additional observations from a re-analysis of the deposited data

How the results depend on the processing

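The counts over all genes stayed within 1.5 times their value under every alternative. Rises against mock ranged from 1294 to 1866 and falls from 1396 to 1953 when 1 array was left out. With the replicate block they were 2272 and 2285, and no named gene lost its call under the block. The median over all genes ranged from -0.005 to 0.03 across settings. Of 262 named genes that passed, 199 were tested and passed under all 17 settings and 47 lost the call under some. The other 16 passed wherever they were tested but were too dim for the stricter filter, among them Cxcl10, Fos, Maff and Slc7a11. Where tested, 0 changed sign. Pou5f1 gained a call with an intensity trend and robust prior. Quantile normalization gave 1890 rises and 1811 falls, and centring on the 75th percentile 1908 and 1954. Smaller groups are less firm. Of 58 gene groups, 45 had a count of rises or falls that moved by over 1.5 times when some array was left out, 21 under the block and 16 under centring or quantile normalization.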
